A study of Sus scrofa with 9 samples.

Results

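The genes described here are those that mark endothelial cells and carry the angiopoietin and VEGF signals into them: TEK, TIE1, CLEC14A, CDH5, KDR, FLT1, ERG, EGFL7, ESAM and ANGPT2. They were chosen by name, with earlier results of these data known, and 9 of the 10 were found among the 25149 genes of the expression table. CDH5, the endothelial cadherin, matched no entry by symbol or identifier and was not analysed here. RNA came from 1 apex biopsy of each of 9 hearts of female American Yorkshire pigs aged 4 to 6 months, taken after 2 h of normothermic machine perfusion (NMP), in which the isolated heart is rewarmed and perfused with blood. Every donor underwent donation after circulatory death (DCD) with 15 min of asystolic warm ischemia, and all 9 hearts went through NMP, so no heart stands for tissue that was neither ischemic nor reperfused. The 3 hearts of NRP + HOPE 24 h (Group 1, pigs 27, 28 and 30) had 60 min of normothermic regional perfusion (NRP), which restores blood flow inside the donor, and then 24 h of hypothermic oxygenated perfusion (HOPE) at 8 °C. The 3 hearts of NRP + SCS 2 h (Group 2, pigs 24, 25 and 29) had the same NRP and then 2 h of static cold storage (SCS) at 4 °C. The 3 hearts of No NRP + HOPE 2 h (Group 3, pigs 31, 33 and 34) had no NRP and 2 h of HOPE. Groups 1 and 2 therefore differ in both the method and the duration of storage, Groups 3 and 2 in both NRP and the method, and Groups 1 and 3 in both NRP and the duration, and within a comparison these cannot be told apart. Donor blood was used in the NMP circuit and donor red cells in the HOPE perfusate.

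Endothelial cells line every vessel of the heart, and their quiescence depends on the Tie receptor system. ANGPT1 from perivascular cells activates TEK (also called Tie2), which keeps junctions tight, whereas ANGPT2, stored in endothelial granules and induced by hypoxia and inflammation, usually opposes it, with TIE1 as a co-receptor that tunes the response. KDR is the main signalling receptor for VEGFA, FLT1 binds VEGFA more tightly and limits its supply, ERG is a transcription factor that maintains endothelial identity and junctional genes, and CLEC14A, ESAM and EGFL7 are a surface lectin-like protein, a junctional adhesion molecule and a secreted matrix protein of endothelium.

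Values are TPM, a read-based measure of transcript abundance that accounts for gene length and sets every heart to the same total. The labels name cardiomyocytes as the cell type, but whole tissue was sampled. Cardiomyocyte markers summed to 18271 to 32718 TPM per heart over 6 listed genes, and the 9 endothelial genes to 273 to 656 TPM. In such bulk samples, fewer cells of a type and less RNA per cell cannot be told apart. PECAM1, a pan-endothelial adhesion molecule, ranged from 99.7 to 234 TPM, and PTPRC, the pan-leukocyte antigen, from 3.03 to 10.1 TPM. Listed at 0 in all 9 hearts were MYH11, of smooth muscle, CSF3R, of neutrophils, and the endothelial or pathway genes S1PR1, LYL1 and NRP2.

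One feature of the hearts touches every value below. The 13 mitochondrially encoded protein-coding genes took 38.2% to 55.3% of all TPM, and the typical gene was mostly lower in hearts with a higher share. A median-of-ratios factor, which is the typical gene's level in a heart relative to the 9 hearts, was lowest in pig 27 (0.737) and pig 31 (0.781) and highest in pig 30 (1.34), while the 3 NRP + SCS 2 h hearts lay between 1.06 and 1.08. Pigs 27 and 28 had mitochondrial shares of 55.3% and 54.7% but factors of 0.737 and 0.916. Leaving the mitochondrially encoded genes out moved the median difference over all genes in Group 1 minus Group 2 from -0.12 to -0.14. The summed endothelial genes were also lowest in pig 27 (273 TPM) and pig 31 (309 TPM), next lowest in pig 28 (405 TPM), and lay between 531 and 656 TPM in the other 6 hearts. Dividing each heart by its factor moved the median difference over all genes by 0.12 on the log2 scale in the comparison of Group 1 with Group 2, so values after this division, called scaled below, are given beside the deposited ones wherever they differ in kind.

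**Figure D1:**
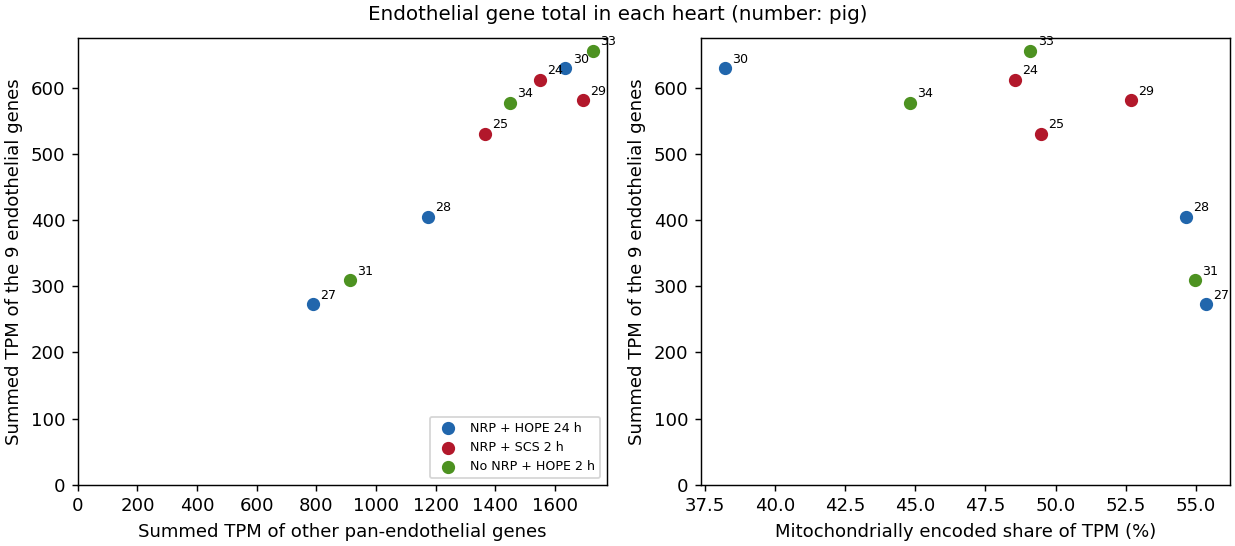
Summed TPM of the 9 endothelial genes in each heart against the summed TPM of the other pan-endothelial genes (left) and against the mitochondrially encoded share of TPM in percent (right), 1 point per heart, colored by group and numbered by pig. Pigs 27, 31 and 28 have the lowest totals on both endothelial axes and the 3 highest mitochondrial shares, from 54.7% to 55.3%.

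Over the 9 hearts, the endothelial genes spanned more than an order of magnitude. ESAM was highest with 113 ± 33.4 TPM (mean ± SD, n = 9), followed by EGFL7 with 86.2 ± 42.8, KDR with 76.6 ± 27.8, CLEC14A with 76.4 ± 31.5, ERG with 60.9 ± 15.6 and FLT1 with 56.5 ± 17.5 TPM. TIE1 reached 21.1 ± 8.19 TPM, ANGPT2 9.53 ± 5.11 TPM and TEK 7.83 ± 2.90 TPM. Among all 11782 genes tested, ESAM was above 95.01% and TEK above 53.8%. Of the 8 steps from one gene to the next in this order, 2 held beyond the spread between hearts: FLT1 was above TIE1 in 9 of 9 hearts (by 1.39 on the log2 scale) and TIE1 above ANGPT2 in 9 of 9 (by 1.16), each with an exact paired permutation p = 0.0039, two-sided, the smallest that 9 hearts allow (Benjamini-Hochberg adjusted p = 0.0156). ESAM was above EGFL7 in 8 of 9 hearts (exact permutation p = 0.0313, adjusted p = 0.0833), and the other 5 steps had exact permutation p-values from 0.230 to 0.996. TEK, the receptor, and ANGPT2, its ligand, were therefore the least abundant of the 9 and not separable in order, with ANGPT2 the higher in 5 of 9 hearts.

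The genes differed in how much they varied. ERG ranged 2.15-fold and ESAM 2.38-fold between the lowest and the highest heart, TIE1 2.66-fold, FLT1 3.17-fold, KDR 3.34-fold, TEK 3.52-fold, EGFL7 3.82-fold, CLEC14A 4.45-fold and ANGPT2 6.27-fold. On log2(TPM + 1), ANGPT2 had an SD of 0.79, larger than that of 92.0% of the genes tested, and ERG one of 0.39, larger than that of 40.02%. As deposited, the lowest heart was pig 27 for 6 of the genes (ESAM, EGFL7, KDR, CLEC14A, TIE1 and TEK) and pig 31 for ERG, FLT1 and ANGPT2. Scaled, it was pig 27 for TEK and CLEC14A, and pig 28 for ESAM. Scaled KDR, FLT1 and ANGPT2 were lowest in pig 31, and scaled EGFL7, TIE1 and ERG in pig 34.

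**Figure D2:**
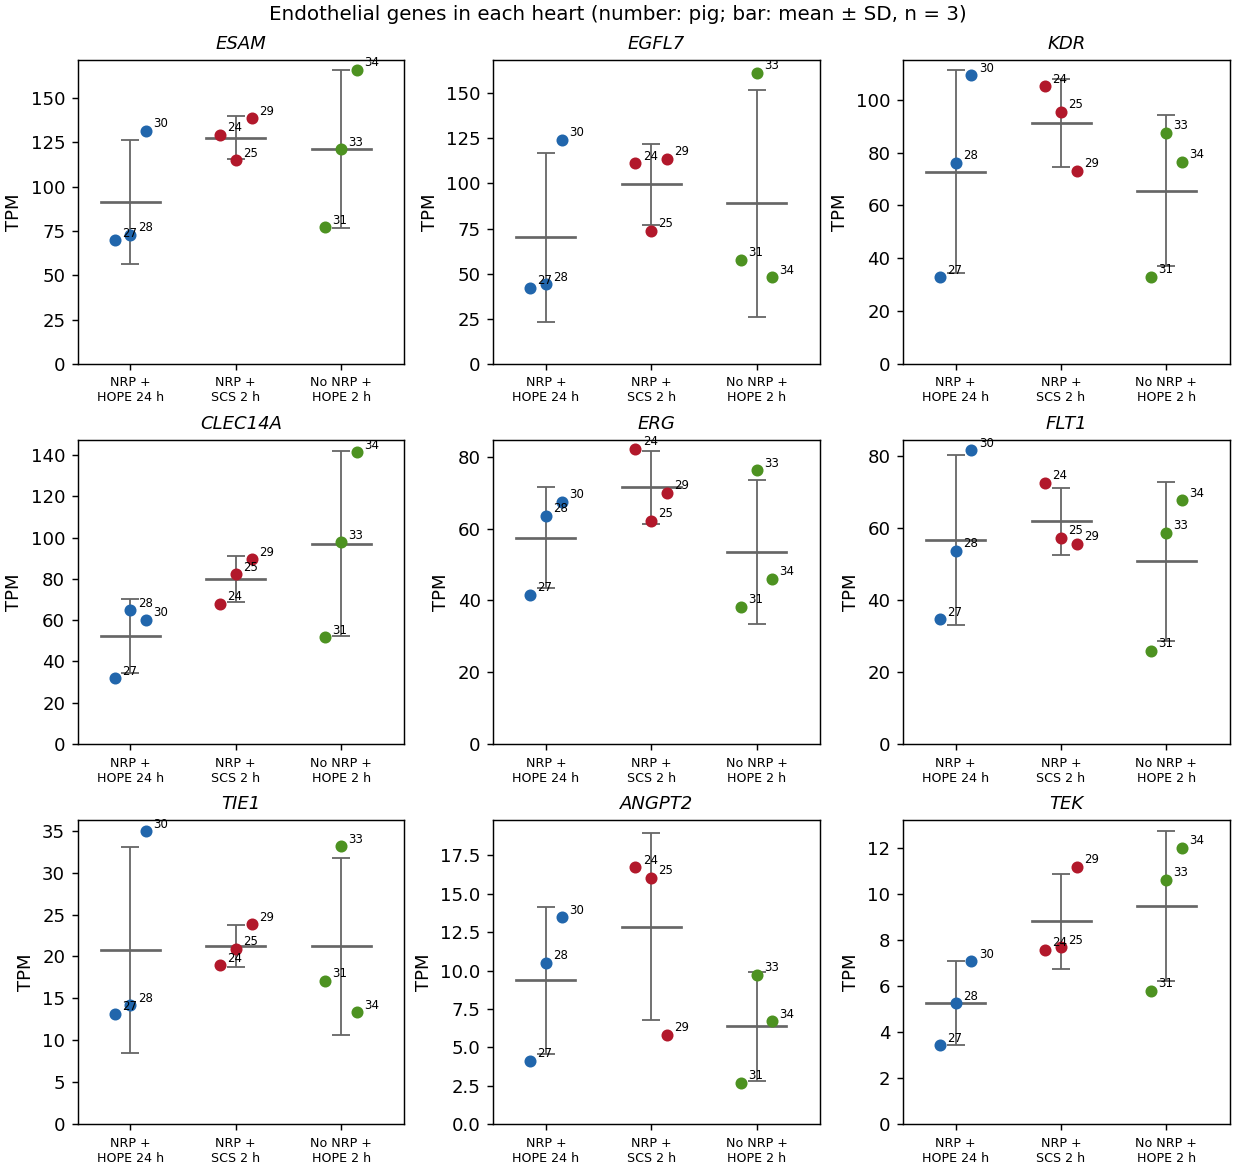
TPM of the 9 endothelial genes in each heart, 1 panel per gene with its own axis from 0; points are hearts numbered by pig, and bars are the mean ± SD of 3 hearts. The 3 NRP + HOPE 24 h hearts lie below the 3 NRP + SCS 2 h hearts for TEK and CLEC14A.

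TEK, the angiopoietin receptor, measured 3.41, 5.24 and 7.05 TPM in the NRP + HOPE 24 h hearts of pigs 27, 28 and 30. In the NRP + SCS 2 h hearts of pigs 24, 25 and 29 it measured 7.55, 7.66 and 11.2 TPM, and in the No NRP + HOPE 2 h hearts of pigs 31, 33 and 34 it measured 5.79, 10.6 and 12.0 TPM. All 3 hearts stored for 24 h were below all 3 stored by SCS, while pig 31 of No NRP + HOPE 2 h lay within the 24 h range. The group means were 5.23 ± 1.82, 8.79 ± 2.06 and 9.46 ± 3.26 TPM (SD, n = 3 each). NRP + HOPE 24 h minus NRP + SCS 2 h was -0.68 on the log2 scale (SE 0.35, 95% interval -1.43 to 0.08, limma adjusted p = 0.993), NRP + HOPE 24 h minus No NRP + HOPE 2 h was -0.74 (SE 0.35, interval -1.49 to 0.02, limma adjusted p = 0.835), and No NRP + HOPE 2 h minus NRP + SCS 2 h was 0.06 (SE 0.35, interval -0.69 to 0.81). None of the differences passed the test.

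Once each heart was divided by its median-of-ratios factor, TEK had the lowest unadjusted p of the 9 genes in both comparisons that involve the 24 h hearts. Scaled TEK measured 4.63, 5.71 and 5.25 in the NRP + HOPE 24 h hearts, 6.99, 7.21 and 10.4 in the NRP + SCS 2 h hearts, and 7.41, 9.83 and 10.1 in the No NRP + HOPE 2 h hearts. The 24 h hearts then lay below all 6 hearts stored for 2 h, with an SD of 0.546 around a mean of 5.20. The scaled difference was -0.55 (SE 0.21, limma unadjusted p = 0.0264, adjusted p = 0.523) against NRP + SCS 2 h and -0.70 (SE 0.21, limma unadjusted p = 0.00805, adjusted p = 0.266) against No NRP + HOPE 2 h, again short of the threshold over all genes. Only ESAM of the other 8 genes shared this placement below both groups, and 2.06% of all genes tested did (243 of 11782).

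TIE1, the co-receptor, did not follow TEK. It measured 13.1, 14.2 and 34.9 TPM in the NRP + HOPE 24 h hearts, 18.9, 20.9 and 23.9 TPM in the NRP + SCS 2 h hearts, and 17.1, 33.1 and 13.3 TPM in the No NRP + HOPE 2 h hearts. Both HOPE groups enclosed the whole SCS range, with 1 high heart each (pigs 30 and 33), and the 3 means lay between 20.8 and 21.2 TPM. The log2 differences were -0.16, -0.10 and -0.07 in the 3 comparisons (NRP + HOPE 24 h minus NRP + SCS 2 h, No NRP + HOPE 2 h minus NRP + SCS 2 h, and NRP + HOPE 24 h minus No NRP + HOPE 2 h), each with an SE of 0.40, and the 95% intervals reached from -1.03 to 0.80 at their widest.

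ANGPT2, the ligand, was the most variable gene. It measured 4.10, 10.5 and 13.5 TPM in the NRP + HOPE 24 h hearts, 16.7, 16.1 and 5.82 TPM in the NRP + SCS 2 h hearts, and 2.67, 9.73 and 6.70 TPM in the No NRP + HOPE 2 h hearts. Pigs 24 and 25 were the highest of the 9, but pig 29 of the same SCS group was among the lowest 3, and the groups overlapped in every comparison. No NRP + HOPE 2 h minus NRP + SCS 2 h was -0.92 on the log2 scale (SE 0.50, 95% interval -2.00 to 0.16, limma adjusted p = 0.750), and it did not pass the test. With 1 heart left out it ranged from -0.49 (without pig 31) to -1.37 (without pig 29). The difference of NRP + HOPE 24 h was -0.43 from NRP + SCS 2 h and 0.49 from No NRP + HOPE 2 h on the same scale, with an SE of 0.50 each.

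CLEC14A, a surface protein confined largely to endothelium, resembled TEK. It measured 31.7, 64.7 and 60.2 TPM in the NRP + HOPE 24 h hearts, 68.1, 82.2 and 89.6 TPM in the NRP + SCS 2 h hearts, and 51.7, 97.8 and 141 TPM in the No NRP + HOPE 2 h hearts. The 24 h hearts were below the 3 SCS hearts, and overlapped No NRP + HOPE 2 h through pig 31. NRP + HOPE 24 h minus No NRP + HOPE 2 h was -0.83 (SE 0.37, 95% interval -1.63 to -0.03, limma unadjusted p = 0.0436, adjusted p = 0.826), and NRP + HOPE 24 h minus NRP + SCS 2 h was -0.66 (SE 0.37, interval -1.46 to 0.14, limma adjusted p = 0.993). After scaling, pig 28 (70.7) was above pig 24 (63.0), and the groups no longer separated.

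The VEGF receptors gave no separation of groups. KDR measured 32.8, 76.1 and 109 TPM in the NRP + HOPE 24 h hearts, 105, 95.6 and 73.0 TPM in the NRP + SCS 2 h hearts, and 33.1, 87.4 and 76.5 TPM in the No NRP + HOPE 2 h hearts. FLT1 measured 34.7, 53.7 and 81.7 TPM, 72.7, 57.4 and 55.6 TPM, and 25.8, 58.7 and 67.7 TPM in the same order. For both receptors pigs 27 and 31 were the 2 lowest hearts and pig 30 the highest. Scaled, pigs 27 and 31 stayed the lowest, but pig 24 was the highest (KDR 97.4, FLT1 67.3), above pig 30 (81.4 and 60.8). The largest of their log2 differences was -0.57 for KDR (No NRP + HOPE 2 h minus NRP + SCS 2 h, SE 0.44, 95% interval -1.51 to 0.37, limma adjusted p = 0.852), and for FLT1 it was -0.38 in the same comparison (SE 0.39, limma adjusted p = 0.894).

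ERG, the identity factor, varied least of the 9 in deposited TPM (after scaling, ESAM did, with an SD of 0.25 on the log2 scale). It measured 41.5, 63.6 and 67.5 TPM in the NRP + HOPE 24 h hearts, 82.3, 62.2 and 70.1 TPM in the NRP + SCS 2 h hearts, and 38.3, 76.3 and 46.1 TPM in the No NRP + HOPE 2 h hearts. Its log2 differences were -0.33, -0.46 and 0.13 in the 3 comparisons (SE 0.31 each, limma adjusted p from 0.825 to 0.996), and the groups overlapped. EGFL7, the secreted protein, measured 42.3, 44.1 and 124 TPM, 111, 73.6 and 114 TPM, and 57.7, 162 and 47.9 TPM in the same order of hearts. As for TIE1, pigs 30 and 33 stood above the rest, here with the highest values of all hearts, and the HOPE groups enclosed the SCS range. Scaled EGFL7 was 92.4 in pig 30, below pig 24 (102.9) and pig 29 (105.7). The scaled NRP + HOPE 24 h hearts thus no longer enclosed the SCS range, while No NRP + HOPE 2 h (40.4 to 149.7) still did.

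ESAM, the junctional adhesion molecule, measured 69.6, 72.9 and 131 TPM in the NRP + HOPE 24 h hearts, 129, 115 and 139 TPM in the NRP + SCS 2 h hearts, and 77.0, 121 and 166 TPM in the No NRP + HOPE 2 h hearts. Pigs 27 and 28 were the 2 lowest hearts, and pig 30 of the same group lay inside the SCS range. Scaled ESAM was 94.5, 79.6 and 97.8 in the 24 h hearts, against 108 to 129 in NRP + SCS 2 h and 98.6 to 140 in No NRP + HOPE 2 h, so that the 24 h group lay below both, by a margin of less than 1 unit against pig 31. The scaled differences of -0.39 (SE 0.18, limma adjusted p = 0.595) and -0.35 (SE 0.18, limma adjusted p = 0.488) did not pass the test.

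In the comparison of Group 1 with Group 2, then, all 9 endothelial genes were lower in mean after 24 h, with log2 differences from -0.16 (TIE1) to -0.68 (TEK), and 0 of 9 were called, a call being an adjusted p under 0.05 together with a log2 fold change beyond 1 in size. The background for that call was 0.0255% of genes (3 of 11782). At an unadjusted p under 0.05 the count was also 0 of 9, against 4.97% of all genes. Separation of groups in the lower direction was seen for 2 of 9, TEK and CLEC14A, against 7.32% of all genes, and in the higher direction for 0 of 9, against 2.5%. The median difference of the 9 genes was -0.47, beside -0.12 for all genes tested. Scaled, the median was -0.32 with all 9 still below 0, 1 of 9 had an unadjusted p under 0.05 (TEK; 8.54% of all genes), and 2 of 9 separated lower (TEK and ESAM; 7.55% of all genes). As deposited, the shared direction rested on pig 27: without it 5 of 9 genes were below 0 and the median was -0.12. Without pig 30 the deposited median moved the other way, to -0.79 with all 9 below 0. After scaling, the mean log2 level of the 9 genes was 4.92, 5.22 and 5.28 in pigs 27, 28 and 30. It was 5.54, 5.42 and 5.42 in pigs 24, 25 and 29. The scaled fit was not repeated with hearts left out. Set relative to the other pan-endothelial genes, a scaling chosen after the data were seen, 6 of 9 were below 0 with a median of -0.08, and TIE1, FLT1 and ERG were above 0.

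In the comparison of Group 3 with Group 2, 7 of 9 genes were lower in mean without NRP, and TEK and CLEC14A were the 2 that were higher. The call was made for 0 of 9 (background 0.0509%, 6 of 11782), an unadjusted p under 0.05 was reached by 0 of 9 (7.22% of all genes; scaled, 0 of 9 against 12.4%), and 0 of 9 separated in the higher (4.44%) or lower (10.3%) direction. The median was -0.35, beside -0.07 for all genes, and -0.25 scaled. Pig 31 carried most of the deposited median, since without that heart 5 of 9 genes were below 0 and the median was -0.0025. Without pig 33 the median was -0.54 with 8 of 9 below 0.

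In the comparison of Group 1 with Group 3, the genes went both ways, with 5 of 9 lower and 4 of 9 higher after 24 h. The call was again made for 0 of 9 (background 0.0509%). CLEC14A alone had an unadjusted p under 0.05 (6.01% of all genes), and 0 of 9 separated higher (2.97%) or lower (4.51%). Scaled, TEK and CLEC14A had an unadjusted p under 0.05 (11.7% of all genes), and TEK and ESAM separated lower (7.97%). The median was -0.07, beside -0.03 for all genes, and it moved to 0.30 without pig 33 and to -0.50 without pig 30. The 3 comparisons use each group of hearts 2 times, so they are not independent of one another.

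**Figure D3:**
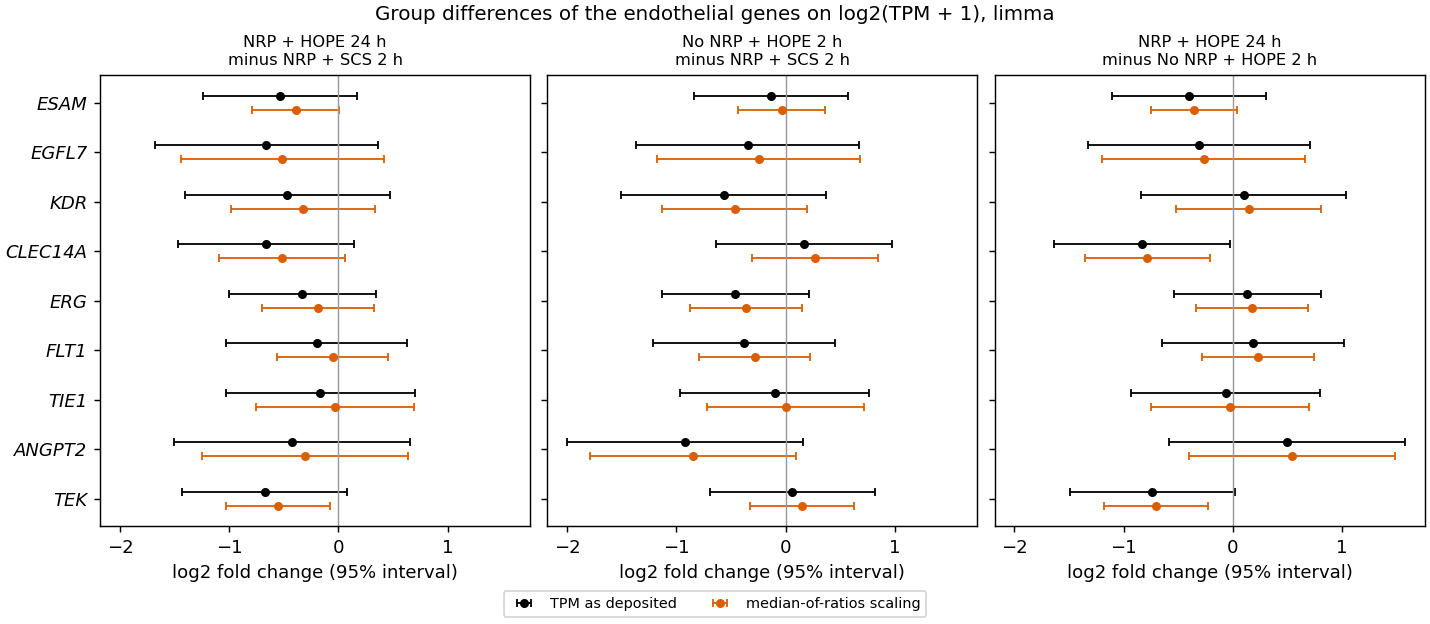
Log2 fold change of each endothelial gene in the 3 comparisons on log2(TPM + 1), with 95% intervals from limma, for TPM as deposited (black) and after median-of-ratios scaling (orange). Scaled intervals are narrower; TEK lies below 0 in both comparisons of NRP + HOPE 24 h, at -0.55 and -0.70 after scaling, while ANGPT2 has the widest deposited intervals.

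Across the 9 hearts the endothelial genes varied together, but unevenly. Over their 36 pairs the Pearson correlation of log2(TPM + 1) ranged from 0.20 to 0.94 with a median of 0.57, and 9 pairs were over 0.8. Because the 9 points share each heart's total, the correlations are also given after scaling, where the median was 0.16, the lowest -0.30, and 4 pairs stayed over 0.8. These 4 were KDR with ANGPT2 (0.91, scaled 0.90), TEK with CLEC14A (0.94, scaled 0.89), TIE1 with EGFL7 (0.92, scaled 0.86) and KDR with FLT1 (0.94, scaled 0.85). Read by eye after the values were seen, 3 sets kept their higher correlations after scaling: TEK and CLEC14A; the VEGF receptors KDR and FLT1 with ANGPT2; and TIE1 with EGFL7. ESAM stood near TEK (0.89, scaled 0.79) and less near CLEC14A (0.80, scaled 0.62). Between the sets the scaled correlations were low, as for the 2 Tie receptors, TEK with TIE1 (0.42, scaled 0.02), and for the receptor and its ligand, TEK with ANGPT2 (0.25, scaled -0.22). ERG stood nearest to EGFL7 and ANGPT2 (scaled 0.57 and 0.55). These correlations describe 9 hearts and were not tested.

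**Figure D4:**
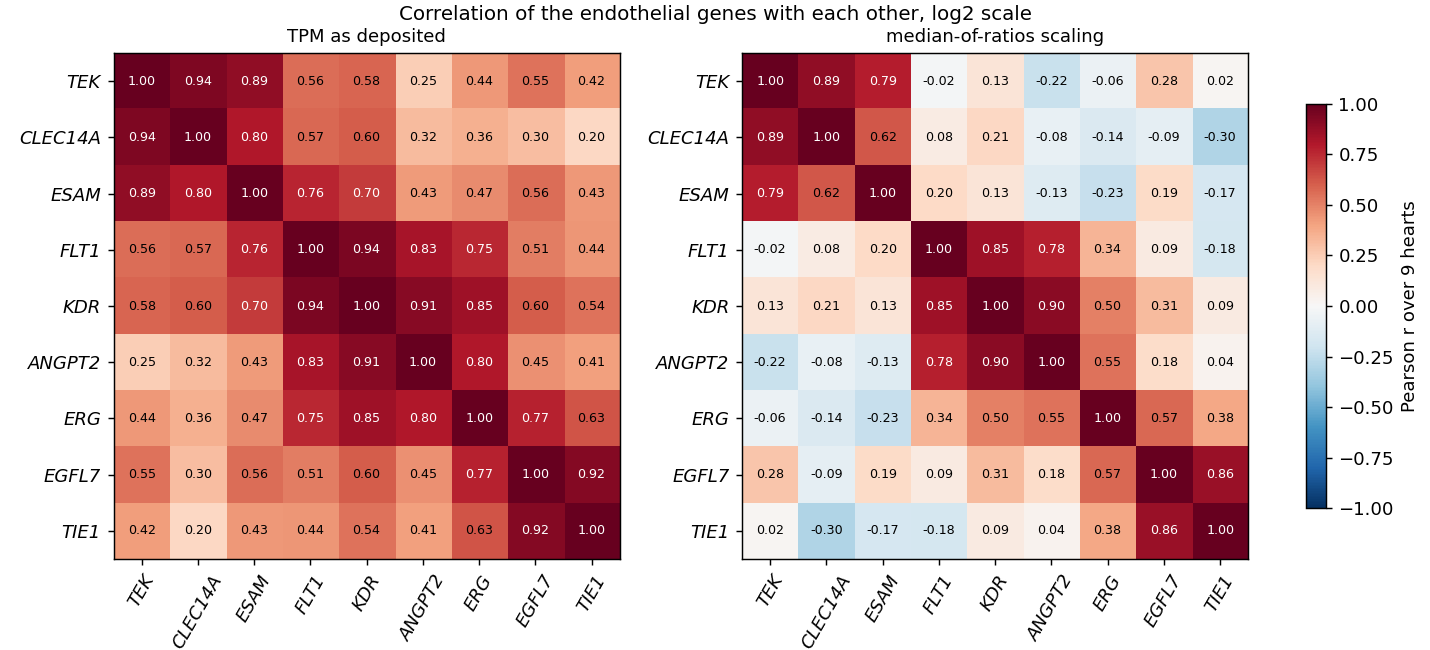
Pearson correlation over 9 hearts between every pair of the endothelial genes, on log2(TPM + 1) as deposited (left) and after median-of-ratios scaling (right); the color scale runs from -1 to 1. As deposited all values are above 0; after scaling the blocks of TEK, CLEC14A and ESAM, of FLT1, KDR and ANGPT2, and of EGFL7 and TIE1 remain.

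The genes most like the 9 in pattern were found by the correlation of each of 7936 other named genes with the mean of the 9 standardised profiles over the 9 hearts. The 10 closest were MYO9B (0.985), PPP1R8, UBE2V1, DNAJC14, PTPN9, GTF2E2, WSB2, SS18, TMEM214 and NCBP2 (0.971), none of them in an endothelial list. PECAM1 was the closest listed endothelial gene, in place 17 with 0.960, followed by ENG, a TGF-beta co-receptor of endothelium, with 0.922. As deposited, 970 genes (12.2%) exceeded 0.8, and scaled only 41 (0.517%) did, with MYO9B again first (0.938) and PECAM1 in place 13 (0.856).

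Ratios of 2 genes within a heart cancel its total except for the added 1, which pulls the ratios of low genes toward 0. ANGPT2 to TEK, the balance of ligand and receptor, was computed as a log2 ratio of TPM + 1. It was 0.21, 0.88 and 0.84 in the NRP + HOPE 24 h hearts, 1.05, 0.98 and -0.84 in the NRP + SCS 2 h hearts, and -0.89, -0.11 and -0.76 in the No NRP + HOPE 2 h hearts. All 3 hearts stored for 24 h had more ANGPT2 than TEK, all 3 hearts without NRP had less, and the SCS hearts were split, with pig 29 on the low side. NRP + HOPE 24 h and No NRP + HOPE 2 h differed by 1.23 (0.65 ± 0.38 against -0.59 ± 0.41, SD, n = 3 each; exact permutation p = 0.1, two-sided, the smallest that 3 hearts against 3 allow, so p under 0.05 could not be reached; Benjamini-Hochberg adjusted p = 0.563 over 15 tests). The difference stayed between 1.08 and 1.47 when any 1 of these 6 hearts was left out. It was 1.43 in plain TPM ratios with nothing added, where the groups also separated. TEK to KDR, chosen after the values were seen, separated the same groups, at -3.45 ± 0.45 against -2.61 ± 0.30 (exact permutation p = 0.1, adjusted p = 0.563), but narrowly, since pig 27 at -2.94 was next to pig 33 at -2.93. In plain TPM ratios the highest of the former group was -3.27 and the lowest of the latter -3.04.

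The other ratios overlapped between all groups. TIE1 to TEK was 1.71 ± 0.44 in NRP + HOPE 24 h, 1.20 ± 0.16 in NRP + SCS 2 h and 1.04 ± 0.78 in No NRP + HOPE 2 h (SD, n = 3 each, exact permutation p from 0.2 to 1). FLT1 to KDR was -0.28 ± 0.31, -0.55 ± 0.17 and -0.36 ± 0.20 in the same order, with KDR above FLT1 in 8 of 9 hearts. ANGPT2 to ANGPT1 was 2.75 ± 0.99, 3.27 ± 0.98 and 2.32 ± 0.81, which mostly follows ANGPT2, because ANGPT1 measured only 0.118 to 0.918 TPM. At that level the added 1 weighs on the ratio. In plain TPM, an alternative chosen after seeing the data, the means were 4.54 ± 1.82, 5.37 ± 1.83 and 4.51 ± 1.64 (SD, n = 3 each). The difference between NRP + HOPE 24 h and No NRP + HOPE 2 h was 0.030 in place of 0.43.

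**Figure D5:**
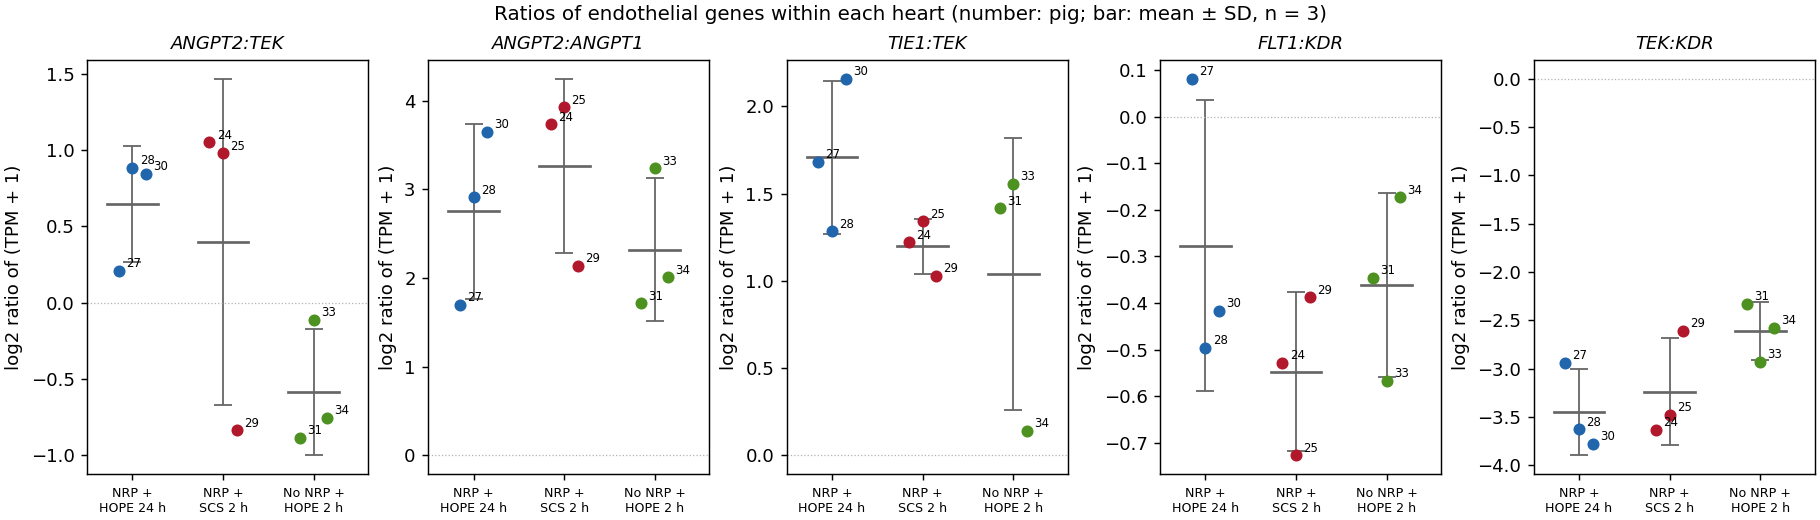
Log2 ratio of (TPM + 1) of 2 genes within each heart, by group; points are hearts numbered by pig, and bars are the mean ± SD of 3 hearts. For ANGPT2:TEK the 3 NRP + HOPE 24 h hearts are above 0 and the 3 No NRP + HOPE 2 h hearts below 0, while pig 29 stands apart from the other two NRP + SCS 2 h hearts.

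Of 19 further genes of the angiopoietin and VEGF pathway, 17 were listed and 13 passed the filter on low values, and 0 of 13 were called in any comparison. Among ligands, VEGFA measured 54.7, 87.3 and 114 TPM in the NRP + HOPE 24 h hearts, 100, 96.6 and 49.7 TPM in the NRP + SCS 2 h hearts, and 24.6, 56.9 and 63.6 TPM in the No NRP + HOPE 2 h hearts. Pigs 31 and 29 gave the lowest values of VEGFA, and the groups overlapped. Its log2 difference between NRP + HOPE 24 h and No NRP + HOPE 2 h was 0.85 (SE 0.41, limma adjusted p = 0.835), and for No NRP + HOPE 2 h minus NRP + SCS 2 h it was -0.80 (SE 0.41, limma adjusted p = 0.732). VEGFB averaged 88.4 TPM over the 9 hearts, PGF 7.51, VEGFC 6.22 and VEGFD 3.37, and their differences lay between -0.55 and 0.38. ANGPT4, another Tie receptor ligand, averaged 0.586 TPM and was below the filter.

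PTPRB, the endothelial phosphatase that switches TEK off, had the lowest unadjusted p of the pathway. It measured 24.0, 39.5 and 50.6 TPM in the NRP + HOPE 24 h hearts, 86.5, 70.4 and 63.6 TPM in the NRP + SCS 2 h hearts, and 30.0, 49.0 and 59.6 TPM in the No NRP + HOPE 2 h hearts. The SCS hearts were above all 6 hearts of the HOPE groups, with log2 differences of -0.98 for NRP + HOPE 24 h (SE 0.34, limma unadjusted p = 0.0114, adjusted p = 0.791) and -0.70 for No NRP + HOPE 2 h (SE 0.34, limma unadjusted p = 0.0566, adjusted p = 0.705). SVEP1, a matrix protein that binds TIE1, measured 1.30, 2.05 and 1.57 TPM, 4.39, 6.25 and 1.70 TPM, and 1.47, 1.45 and 1.19 TPM in the same order, at differences of -0.85 (SE 0.37, limma unadjusted p = 0.0396, adjusted p = 0.965) and -0.998 (SE 0.37, limma unadjusted p = 0.0184, adjusted p = 0.582) from NRP + SCS 2 h. The SCS values other than pig 29 were the 2 highest, and the No NRP hearts all lay below the SCS group. Of the 13 pathway genes, 2 thus had an unadjusted p under 0.05 in NRP + HOPE 24 h minus NRP + SCS 2 h (4.97% of all genes). In No NRP + HOPE 2 h minus NRP + SCS 2 h 1 did (7.22%), and 0 did in NRP + HOPE 24 h minus No NRP + HOPE 2 h (6.01%). Groups separated in the lower direction for 1 of 13 in the first comparison (7.32% of all genes) and 3 of 13 in the second (10.3%). In the higher direction they separated for 1 of 13 (2.5%) and 0 of 13 (4.44%). In the third comparison 0 of 13 separated either way (2.97% higher, 4.51% lower).

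Of the receptors and intracellular members, NRP1, the VEGF co-receptor, measured 18.7 to 41.2 TPM in No NRP + HOPE 2 h, below the 46.1 to 52.8 TPM of NRP + SCS 2 h (log2 difference -0.72, SE 0.35, limma adjusted p = 0.708), and 20.2 to 46.7 TPM in NRP + HOPE 24 h. FOXO1, the transcription factor that TEK signalling restrains and that drives ANGPT2, measured 11.2 to 21.0 TPM in NRP + HOPE 24 h, above the 10.01 to 10.6 TPM of NRP + SCS 2 h (0.54, SE 0.32, limma adjusted p = 0.993). FLT4, the lymphatic VEGF receptor, averaged 1.21 TPM, DOK2, an adaptor of TEK, 2.10, PLCG1, the phospholipase downstream of KDR, 11.5, and TNIP2, a TEK-associated inhibitor of NF-kB, 12.9 TPM. Their differences ranged from -0.75 (DOK2, NRP + HOPE 24 h minus NRP + SCS 2 h, limma adjusted p = 0.993) to 0.24 (PLCG1, No NRP + HOPE 2 h minus NRP + SCS 2 h). PIK3R1, a regulatory subunit of the kinase downstream of TEK, averaged 0.332 TPM and was not tested.

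Lists nearer to the functions of ERG, ESAM and the missing CDH5 were also read, with 0 genes called in any. The 10 endothelial transcription factors tested had a median difference of -0.05 for NRP + HOPE 24 h minus NRP + SCS 2 h, of 0.30 for No NRP + HOPE 2 h minus NRP + SCS 2 h and of -0.21 for NRP + HOPE 24 h minus No NRP + HOPE 2 h. The largest in each were ETS1, a relative of ERG, at 0.67, ETV2 at 0.72 and LMO2 at -0.84. With 1 heart left out the medians ranged from -0.26 (without pig 30) to 0.17 (without pig 27) in the first comparison. They ranged from 0.03 (without pig 34) to 0.52 (without pig 31) in the second, and from -0.45 (without pig 30) to 0.19 (without pig 33) in the third. The 14 junction partners of the endothelial cadherin had medians of -0.11, -0.25 and 0.11 in the same order of comparisons, with ARHGAP29 at -0.47 in the first and JAM2 at 0.66 in the third. The 4 lymphatic genes tested went both ways, with medians of 0.014, 0.016 and -0.042. PDPN was at 0.79, 0.03 and 0.76 and PROX1 at 0.36, -0.02 and 0.38, while LYVE1 was at -0.34, 0.34 and -0.68 and FLT4 at -0.46, 0.0024 and -0.47. The 3 endocardial genes tested had medians of -0.12, 0.05 and -0.27, with SMOC1 at -0.21 in the first and NFATC1 at 0.35 in the second and -0.38 in the third. No gene of these lists had a limma unadjusted p under 0.05.

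Other cell type markers were read beside these values. The 17 other pan-endothelial genes tested had a median log2 difference of -0.41 for NRP + HOPE 24 h minus NRP + SCS 2 h, with 16 of 17 below 0 and 0 called. For No NRP + HOPE 2 h minus NRP + SCS 2 h the median was -0.19 with 11 of 17 below 0, and for NRP + HOPE 24 h minus No NRP + HOPE 2 h it was -0.28 with 13 of 17 below 0. These medians too rested on single hearts. The first was -0.12 without pig 27 (10 of 17 below 0) and -0.63 without pig 30. The second turned to 0.07 without pig 31 (6 of 17 below 0) and was -0.38 without pig 33. The third was -0.04 without pig 27, -0.0045 without pig 33, -0.45 without pig 30, -0.48 without pig 31 and -0.17 without pig 34. The genes summed to 787, 1175 and 1635 TPM in the NRP + HOPE 24 h hearts, 1550, 1367 and 1693 TPM in the NRP + SCS 2 h hearts, and 914, 1727 and 1450 TPM in the No NRP + HOPE 2 h hearts. An unadjusted p under 0.05 was reached by 2, 0 and 1 of 17 in these comparisons, against 4.97%, 7.22% and 6.01% of all genes. In the first NOS3, the endothelial nitric oxide synthase, was at -0.90 (SE 0.33, limma adjusted p = 0.849), and ARHGEF15 at -1.01 (SE 0.38, limma adjusted p = 0.918). In the third NOS3 was at -0.72 (SE 0.33, limma adjusted p = 0.826). Of 12 arterial, venous and Notch genes 4 had an unadjusted p under 0.05 in NRP + HOPE 24 h minus NRP + SCS 2 h, against 4.97% of all genes, with limma adjusted p from 0.901 to 0.985: EPHB4 (-1.09), NR2F2 (-0.95), GJA5 (-0.91) and NOTCH4 (-0.89). In No NRP + HOPE 2 h minus NRP + SCS 2 h 1 of 12 did (7.22% of all genes), NR2F2, a factor of venous identity, at -1.14 (SE 0.35, limma adjusted p = 0.472). Its 2.25 to 3.99 TPM lay below the 6.94 to 8.93 TPM of the SCS hearts. In NRP + HOPE 24 h minus No NRP + HOPE 2 h 1 of 12 did (6.01%), NOTCH4 at -0.87 (SE 0.36, limma adjusted p = 0.795).

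Pericyte and smooth muscle genes summed to 268 to 535 TPM in NRP + HOPE 24 h, 386 to 549 in NRP + SCS 2 h and 484 to 571 in No NRP + HOPE 2 h. For NRP + HOPE 24 h minus No NRP + HOPE 2 h the median of the 9 tested was -0.49, with 6 below 0 and 3 above. ACTA2 was at -1.28 (limma adjusted p = 0.402) and NOTCH3 at -1.05 (limma adjusted p = 0.751), and above 0 were MCAM at 0.46, CSPG4 at 0.44 and CNN1 at 0.40 (limma adjusted p from 0.955 to 0.972). A limma unadjusted p under 0.05 was reached by 2 of 9 here (6.01% of all genes), and by 0 of 9 in each comparison with NRP + SCS 2 h. Relative to NRP + SCS 2 h the median was -0.31 for NRP + HOPE 24 h (7 of 9 below 0) and 0.16 for No NRP + HOPE 2 h (3 of 9 below 0). Fibroblast genes summed to 669 to 976 TPM in NRP + HOPE 24 h, 591 to 853 TPM in NRP + SCS 2 h and 898 to 1006 TPM in No NRP + HOPE 2 h, so that the last lay above the SCS hearts. Leukocyte genes summed to 13.8 to 39.3 TPM in NRP + HOPE 24 h, 31.4 to 52.1 TPM in NRP + SCS 2 h and 20.6 to 30.5 TPM in No NRP + HOPE 2 h, which lay below the SCS hearts. Erythroid and platelet genes summed to 75.9 to 427 TPM in NRP + HOPE 24 h and 224 to 374 TPM in No NRP + HOPE 2 h, against 73.7 to 135 TPM in NRP + SCS 2 h. HBB, a globin, was at 1.27 and 1.52 relative to NRP + SCS 2 h (limma adjusted p = 0.943 and 0.516). ALAS2, of heme synthesis in red cells, was at 0.91 and 1.14 (limma adjusted p = 0.993 and 0.658). ITGA2B, of platelets, averaged 1.83 TPM in NRP + HOPE 24 h, 1.91 in NRP + SCS 2 h and 1.83 in No NRP + HOPE 2 h. A limma unadjusted p under 0.05 was reached by 1 and 2 of these 3 genes relative to NRP + SCS 2 h (4.97% and 7.22% of all genes). Of the 3, 0 and 2 separated higher (2.5% and 4.44% of all genes). Of the 4 leukocyte genes tested 3 were below 0 in each of these comparisons (medians -0.36 and -0.39), S100A9, a myeloid protein, at -1.35 and -2.17 (limma adjusted p = 0.792 and 0.140). The others were smaller, with CD68 at -0.60 and -0.47, CSF1R at 0.41 and -0.31, and PTPRC at -0.12 and 0.01. A limma unadjusted p under 0.05 was reached by 1 of 4 in each comparison (4.97% and 7.22% of all genes). The 6 cardiomyocyte genes tested had a median of -0.23 for NRP + HOPE 24 h minus NRP + SCS 2 h (4 of 6 below 0). It was -0.12 for No NRP + HOPE 2 h minus NRP + SCS 2 h (5 of 6 below 0) and 0.04 for NRP + HOPE 24 h minus No NRP + HOPE 2 h (3 of 6 below 0). Over the 12 lists and 3 comparisons, 20 of 36 list medians changed sign when 1 heart was left out. No gene of any of these lists was called, and any share of other cell types, of blood and of the mitochondrially encoded share in the endothelial values was not tested.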

How the data were processed

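The RNA of apex biopsies was sequenced by the authors as paired reads of 150 bases. Per the labels, the submitters' processing notes name bcl2fastq 2.17, Trimmomatic 0.36, STAR 2.5.2b and featureCounts of Subread 1.5.2, and DESeq2 for the authors' own calls; the genome build is not given in the sources used here, and no coordinates or sequences are given. The deposited values are TPM, summing to 1000000 per heart over 25149 genes. TPM keeps no depth, so depth is unknown and no counting interval is given. Hearts were assigned by pig number; 9 further columns of per-sample values could not be tied to a sample and were not used. Symbols were filled for 748 genes from a table of identifiers.

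TPM are not counts, so limma 3.58.1 (R 4.3.3; eBayes with trend) was used on log2(TPM + 1), with all 9 hearts in 1 fit and 1 mean per group, for the 11782 genes that reached 1 TPM in 3 or more hearts. Fold changes on this scale understate the change of low genes. Tests were two-sided with Benjamini-Hochberg adjustment over all genes in each comparison; a call required both an adjusted p under 0.05 and a log2 fold change beyond 1 in size. Groups were said to separate where all hearts of one were above all of the other. Levels and ratios were compared by exact permutation tests (scipy 1.17.1, Python 3.11.15). The fit was tested on simulated data. Each heart is a different pig with 1 biopsy, and p-values measure the spread between these hearts.

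The endothelial genes and all gene lists were chosen with earlier results of these data known. Named were the 10 genes, the pathway list, from each other list genes among the 3 largest differences in a comparison, or with an unadjusted p under 0.05 and a change over 1, and the 10 genes most alike; other genes named (PECAM1, ENG, PTPRC, NOTCH4, CNN1 and genes listed at 0) were chosen after their values were seen. Alternatives were another pseudocount (0.1), no filter, a mean of at least 5 TPM, mitochondrially encoded genes left out, median-of-ratios scaling, only the 6 hearts compared, eBayes without trend, each heart left out, and, chosen after seeing the data, scaling to the other pan-endothelial genes, ratios without a pseudocount and list medians without each heart.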

Additional observations from a re-analysis of the deposited data

How the results depend on the processing

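The count of 0 endothelial genes called held under all 17 alternatives in each comparison. The lowest adjusted p was 0.266 (limma, TEK, NRP + HOPE 24 h minus No NRP + HOPE 2 h, median-of-ratios scaling). The median differences moved by less than the SD of 0.47 between hearts of a group, but that SD was as large as the largest median. They ranged from -0.79 to -0.08 for NRP + HOPE 24 h minus NRP + SCS 2 h and from -0.54 to -0.0025 for No NRP + HOPE 2 h minus NRP + SCS 2 h. For NRP + HOPE 24 h minus No NRP + HOPE 2 h they ranged from -0.50 to 0.30, so the sign changed. The count of all genes called depended on the setting. For NRP + HOPE 24 h minus NRP + SCS 2 h it was 3, and 0 with a pseudocount of 0.1, 1 without the filter, 6 at a mean of at least 5 TPM, 13 with only the 6 hearts compared, 27 relative to the other pan-endothelial genes, and 0 to 12 with 1 heart left out. For No NRP + HOPE 2 h minus NRP + SCS 2 h it was 6, and 1 without the filter, 19 without mitochondrially encoded genes, 19 with median-of-ratios scaling, 3 with only the 6 hearts, and 1 to 13 with 1 heart left out. For NRP + HOPE 24 h minus No NRP + HOPE 2 h it was 6, and 3 with a pseudocount of 0.1, 2 without mitochondrially encoded genes, 3 with median-of-ratios scaling, 12 relative to the pan-endothelial genes, and 0 to 16 with 1 heart left out. The cause was not tested.

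Relative to the other pan-endothelial genes the sign turned for TIE1 (0.23), FLT1 (0.19) and ERG (0.061) in NRP + HOPE 24 h minus NRP + SCS 2 h, for TIE1 (0.047) and ESAM (0.0087) in No NRP + HOPE 2 h minus NRP + SCS 2 h, and for TIE1 (0.18) in NRP + HOPE 24 h minus No NRP + HOPE 2 h. With 1 heart left out, 23 of 243 differences of single genes and 7 of 90 ratio differences turned sign, none of them past the threshold. Their ranges for NRP + HOPE 24 h minus NRP + SCS 2 h were -0.88 to 0.020 (ANGPT2), -0.84 to 0.016 (KDR), -0.50 to 0.11 (FLT1) and -0.60 to 0.077 (TIE1), all turning without pig 27 and TIE1 also without pig 28, and for ratios -1.08 to 0.014 (ANGPT2 to ANGPT1, without pig 27), -0.37 to 0.58 (ANGPT2 to TEK, without pig 29) and -0.46 to 0.11 (TEK to KDR, without pig 29). For No NRP + HOPE 2 h minus NRP + SCS 2 h they were -0.12 to 0.35 (TEK), -0.64 to 0.037 (FLT1), -0.39 to 0.15 (ESAM), -0.46 to 0.17 (TIE1), -0.16 to 0.56 (CLEC14A) and -0.42 to 0.29 (TIE1 to TEK), turning without pig 31 (FLT1 and ESAM), without pig 34 (TEK, TIE1, CLEC14A and the ratio), and for TEK also without pig 24, 25 or 33. For NRP + HOPE 24 h minus No NRP + HOPE 2 h they were -0.50 to 0.30 (TIE1), -0.33 to 0.58 (KDR), -0.23 to 0.49 (FLT1), -0.074 to 0.41 (ERG), -0.81 to 0.22 (EGFL7), -0.016 to 0.96 (ANGPT2 to ANGPT1) and -0.094 to 0.19 (FLT1 to KDR), turning without pig 27 or 33 (TIE1 and FLT1 to KDR), 28 (TIE1 and KDR), 30 (KDR, FLT1 and ANGPT2 to ANGPT1), 31 (KDR, FLT1 and ERG) and 33 (EGFL7). TEK, CLEC14A and ESAM kept their direction in both comparisons of NRP + HOPE 24 h under all 17 alternatives, at -0.88 to -0.28 and -1.02 to -0.49 for TEK, at -0.85 to -0.27 and -1.22 to -0.50 for CLEC14A, and at -0.83 to -0.15 and -0.69 to -0.14 for ESAM. Without a pseudocount all 15 ratio differences kept their sign, and ANGPT2 to ANGPT1 between NRP + HOPE 24 h and No NRP + HOPE 2 h moved from 0.43 to 0.030. The ratio of CDH5 to PECAM1 was planned and not run. No paired analysis was possible because each pig gave 1 heart to 1 group, and the groups share no replicate number.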
